A study of Homo sapiens with 6 samples.

Results

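The protein-coding genes of chromosome 15 were followed in order of position in NB4, a cell line established from acute promyelocytic leukaemia, to locate where transcript levels changed from lower to higher when CD69-overexpressing cells were set against control cells. Members were the coding rows on chromosome 15 (GRCh38) with a mean of at least 5 CPM (counts divided by the library total and scaled to 1000000) over the 6 libraries. They were 347 of the 599 coding rows placed on the chromosome, and 347 of 10246 coding rows at that level in the whole table. The stretches to be compared were chosen by the measured ratios themselves, with the 40 to 45 Mb stretch picked as lowered and the 60 to 85 Mb stretch as raised. The ratios below are therefore a description and carry no test, and adjusted p-values serve only to count genes. Just under the level lay RASGRF1 (4.74 CPM, log2 ratio -1.17), CGNL1 (4.77 CPM, 1.22) and NRG4 (4.88 CPM, 0.24). Just above it lay ALDH1A3 (5.11 CPM, -1.08), ISL2 (5.34 CPM, 0.47) and CELF6 (5.45 CPM, 0.21).

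Of the 6 poly(A) RNA libraries, 3 came from NB4 cells that carried a lentivirus for stable CD69 expression (genotype label CD69-overexpression) and 3 from NB4 cells with the vector control (genotype label Wild-type). All 6 carry batch 1, came from cells in logarithmic growth, and received no drug. CD69 is a lectin-type receptor that white blood cells display soon after they are activated. The libraries are called biological replicates, but whether separate transductions lie behind them is not stated. A group may be a single transduced population, and the adjusted p-values then reflect library-to-library spread alone. In bulk RNA, fewer cells of a type and less RNA per cell cannot be told apart.

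Chromosome 15 is acrocentric, and its protein-coding genes lie on the long arm. The part nearest the centromere holds the imprinted Prader-Willi and Angelman region and blocks of duplicated sequence with the GOLGA8 gene family. Farther out lie B2M, the light chain of class I major histocompatibility molecules, and PML, the gene joined to RARA by the translocation between chromosomes 15 and 17 that defines acute promyelocytic leukaemia and that NB4 carries.

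Promoter sequences are shown for the genes on either side of the step described below, SQOR and DUT, and for the genes that stood farthest above (ADAMTS7) and below (GOLGA8M) their neighbours. DNAJA4, the lowest against its neighbours outside the GOLGA8 family, was added after its values were seen. Each is the 250 bases before the RefSeq gene start (RefSeq, GRCh38.p14), written 5′ to 3′ on the gene's strand. Capitals mark every match to GGGCGG (the core of the GC box), CCAAT (the box of that name), TATAAA (the TATA box), CACGTG (an E-box), CCGGAAG (an ETS-type motif) or AGGTCA (a nuclear receptor motif) on either strand, and overlapping matches run together. The windows are chr15:45634779-45635028 (plus strand) for SQOR, chr15:48330845-48331094 (plus) for DUT, chr15:78811465-78811714 (minus) for ADAMTS7, chr15:28712422-28712671 (minus) for GOLGA8M and chr15:78263895-78264144 (plus) for DNAJA4.
SQOR: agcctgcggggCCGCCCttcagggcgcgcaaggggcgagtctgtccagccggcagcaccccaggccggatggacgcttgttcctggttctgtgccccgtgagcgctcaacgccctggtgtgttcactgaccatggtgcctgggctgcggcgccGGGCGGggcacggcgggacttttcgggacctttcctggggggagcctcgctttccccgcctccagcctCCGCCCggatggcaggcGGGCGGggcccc
DUT: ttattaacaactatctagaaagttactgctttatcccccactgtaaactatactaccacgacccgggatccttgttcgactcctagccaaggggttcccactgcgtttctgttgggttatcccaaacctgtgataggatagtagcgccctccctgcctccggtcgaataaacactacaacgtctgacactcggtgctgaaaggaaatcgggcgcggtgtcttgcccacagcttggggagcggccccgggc
ADAMTS7: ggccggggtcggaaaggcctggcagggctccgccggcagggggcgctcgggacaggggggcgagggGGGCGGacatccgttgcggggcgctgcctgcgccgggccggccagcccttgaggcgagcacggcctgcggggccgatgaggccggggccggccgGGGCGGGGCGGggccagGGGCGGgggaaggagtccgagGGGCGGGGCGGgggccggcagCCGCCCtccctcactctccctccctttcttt
GOLGA8M: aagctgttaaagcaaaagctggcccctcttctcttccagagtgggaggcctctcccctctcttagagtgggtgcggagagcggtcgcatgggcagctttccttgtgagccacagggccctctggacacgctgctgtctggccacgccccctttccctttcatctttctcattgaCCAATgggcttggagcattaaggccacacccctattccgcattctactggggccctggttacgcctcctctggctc
DNAJA4: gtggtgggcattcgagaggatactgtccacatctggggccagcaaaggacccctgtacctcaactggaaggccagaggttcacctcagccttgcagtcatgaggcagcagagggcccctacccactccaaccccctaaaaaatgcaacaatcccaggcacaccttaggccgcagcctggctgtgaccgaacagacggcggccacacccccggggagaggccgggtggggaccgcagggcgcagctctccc
The SQOR window held 4 matches to GGGCGG and the ADAMTS7 window held 7, 2 pairs of which overlap. GOLGA8M had 1 CCAAT, and DUT and DNAJA4 had none of the 6 motifs. The windows of SQOR and GOLGA8M start inside the longer gene models used for the counts below.

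Total counts per library ran from 51543550 to 57463020, and members took 3.51% to 3.57% of them in the controls and 3.69% to 3.72% in the overexpressing libraries. CD69 stood at 80.8, 82.6 and 68.8 CPM in control replicates 1 to 3 and reached 99.6, 99.3 and 94.8 CPM with overexpression, so the groups did not overlap and lay close together. Of 7 promyelocyte markers, 6 were present in every library, with CTSG between 567 and 767 CPM, while MPO stood at only 0.525 to 1.45 CPM in all 6 and their summed level was 1455 to 1561 CPM in the control libraries and 2579 to 2872 CPM in the overexpressing libraries. The summed level of 6 B cell markers was 19.5 to 30.9 CPM among the controls. It was 31.9 CPM in replicate 1 of the overexpressing cells, 207 CPM in replicate 2 and 217 CPM in replicate 3. The sum of 4 T and NK cell markers was 53.9 to 70.8 CPM in the control libraries and 99.8 to 118 CPM in the overexpressing libraries. Nearly all of it was NKG7, with CD3E at 0 in all 6 and CD3D and GNLY at most 0.196 CPM. The sum of 3 erythroid markers was at most 0.766 CPM. The sum of 3 fibroblast markers was 15.8 to 30.1 CPM in the control libraries and 7.86 to 22.6 CPM in the overexpressing libraries, with DCN at 0 in 4 of 6. Control replicate 3 stood apart from the other controls in several stretches, and segment medians and genes beside the steps that move by over 0.1 without it are given without it as well.

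Along the chromosome, members up to SQOR were mostly lower and members from DUT on mostly higher in the overexpressing cells. For each library, the log2 ratio of a gene to the control mean was taken after adding 0.1 CPM, and the members were split where the summed absolute deviation from the segment medians was smallest. With 1 step, the split fell between SQOR, which ends at 45691294, and DUT, which starts at 48331011. The 115 members before it had a median log2 ratio of -0.47 (0.723-fold), and the 232 members after it had a median of 0.30 (1.23-fold). This step removed 25.0% of the summed absolute deviation. The split fell at the same place in overexpressing replicates 1, 2 and 3 taken singly, where it removed 21.2%, 23.2% and 25.3%. All 3 were set against the same control mean, so these splits are not independent of each other. Each control set against the other 2 controls gave a best single step that removed 2.50% to 4.75%, at a different place in each.

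**Figure D1:**
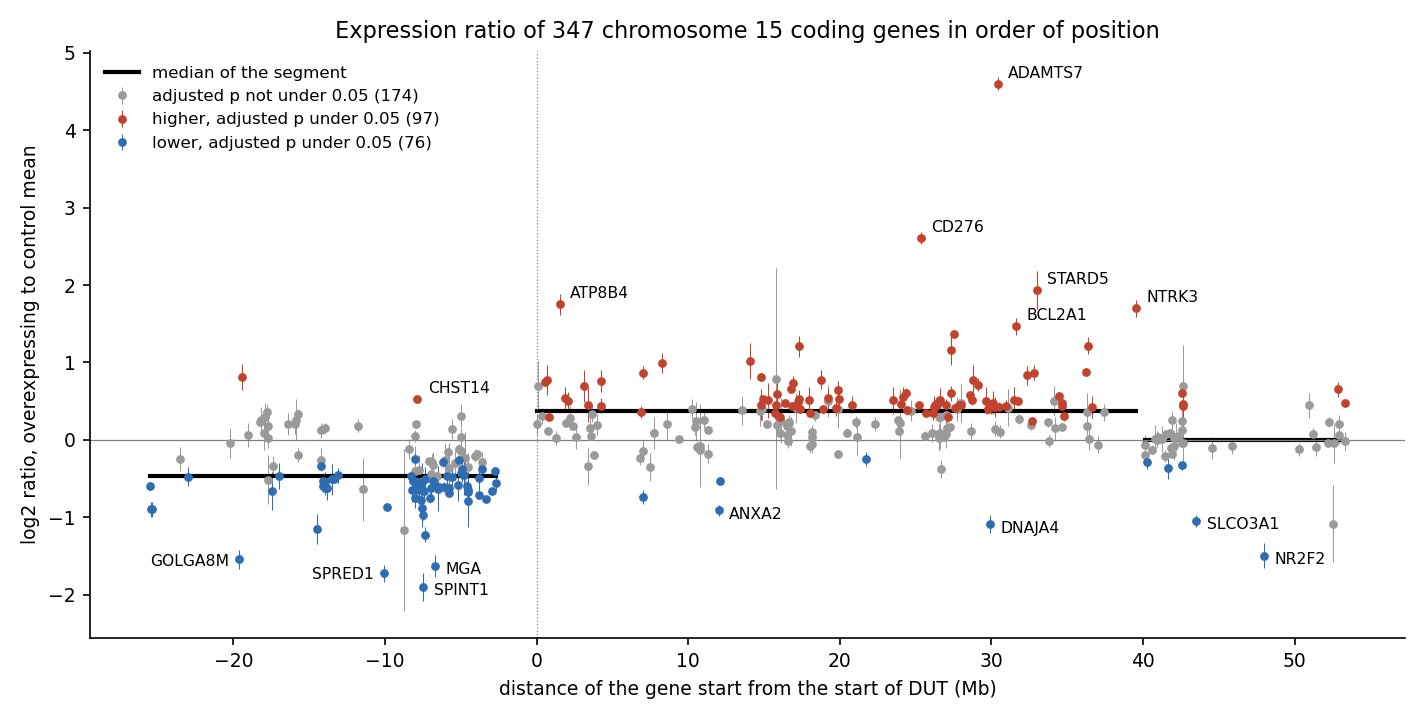
Mean log2 ratio of each of the 347 members (y axis; error bars are the SD over the 3 overexpressing libraries) against the distance of its start from the start of DUT in Mb (x axis), coloured by its call, with black lines at the medians of the 3 segments. Points before DUT gather near -0.47, those after it near 0.38, and the last 45 near 0, with the 15 departing genes named.

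A second step, between NTRK3 and MRPL46, raised the share removed to 29.9% and gave 3 segments, called proximal, middle and distal below. The proximal segment (115 members, from 22838641 on) had 93 members below 0 and 22 above, with the middle 50% of values between -0.62 and -0.20. Its median was -0.39, -0.43 and -0.53 in overexpressing replicates 1 to 3. The middle segment (187 members, DUT to NTRK3) had 166 above 0 and 21 below, a median of 0.38 (1.3-fold), and 50% of values between 0.15 and 0.51. Its median was 0.35, 0.37 and 0.32 in the 3 libraries. The distal segment (45 members, from MRPL46 at 88459476 to TARS3, which ends at 101724604) was split evenly, with 23 above 0 and 22 below and a median of 0.00. Its medians in the 3 libraries were -0.00, 0.05 and -0.08. For comparison, medians of each control against the other 2 controls lay between -0.14 and 0.08 in these segments, nearer 0 than every proximal and middle median of the overexpressing libraries. The segments were cut on the overexpressing ratios and not on those of the controls, so this order was largely fixed beforehand. The 9899 coding genes of at least 5 CPM on other chromosomes had a median of -0.01, with 50% of them between -0.22 and 0.24.

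The edgeR quasi-likelihood test over all 19485 tested genes called 97 members higher and 76 lower at an adjusted p under 0.05, and 174 were not called. Over all tested genes 14.2% were called higher and 9.94% lower, and among coding genes at the member level 17.9% and 15.6%. All 347 members had passed the filter on low counts. By segment, 2 were called higher and 66 lower in the proximal, 90 higher and 5 lower in the middle, and 5 higher and 5 lower in the distal segment. In 137 members all 3 overexpressing libraries lay above all 3 controls, and in 93 all lay below, against 27.1% and 24.8% of all coding genes at that level. As the members were selected on this contrast, nothing is read from these counts. The sign was the same in all 3 overexpressing libraries for 296 of 347 members. All 3 ratios of a member share the same control mean, so spread among the controls alone can give them a common sign. The share over all coding genes is not given here, and nothing is read from this count either. The median SD of a member's ratio over the 3 libraries was 0.10, which leaves out the spread of the controls.

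The 3 genes before the first step were SPATA5L1, BLOC1S6 and SQOR. SPATA5L1, an AAA ATPase, was at 20.5, 23 and 23.4 CPM in the control libraries and 13.8, 14.1 and 14.5 CPM in the overexpressing libraries. BLOC1S6, a subunit of a complex for lysosome-related organelles, was at 93.6, 95.2 and 71.7 CPM against 66.3, 67.5 and 64.3 CPM. SQOR, the mitochondrial enzyme that oxidises sulfide, was at 162, 163 and 186 CPM against 116, 109 and 122 CPM. All 3 fell, by 0.65, 0.39 and 0.56 on the log2 scale, and in none did the groups overlap. Without control replicate 3 the ratio of BLOC1S6 was -0.51. BLOC1S6 and SQOR overlap exons of another annotated gene on the same strand, so part of their counts is uncertain.

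After the step came DUT, which encodes the enzyme that clears dUTP, then FBN1, the matrix protein fibrillin-1, and CEP152, a centriole duplication factor. DUT was at 223, 221 and 246 CPM in the control libraries and 253, 249 and 295 CPM in the overexpressing libraries, a log2 ratio of 0.20 with no overlap between groups. FBN1 was at 4.34, 6.87 and 4.72 CPM against 9.28, 10.4 and 6.65 CPM, and CEP152 at 68.8, 69.2 and 49.9 CPM against 79.9, 81.9 and 71.4 CPM. None of the 3 passed the test, and FBN1's groups overlapped. CEP152 had a ratio of 0.31, and of 0.17 without control replicate 3. Between SQOR and DUT lay 2.64 Mb with 30 rows of the table, 5 of them coding, and the most abundant coding row there had a mean of 0.434 CPM. RPL7AP62, a pseudogene at 2.37 CPM, had a log2 ratio of -0.02, and DUT-AS1, an antisense row that starts at 48312353, had -0.46 with overlapping groups (8.87, 5.25 and 6.35 CPM against 4.85, 6.40 and 3.86 CPM). The position of the change within this gap was therefore not resolved.

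Next to the second step the values were less even. AKAP13, an anchoring protein of protein kinase A, had a ratio of -0.06, and KLHL25, an adaptor of a ubiquitin ligase, 0.36, both with overlapping groups. NTRK3, the neurotrophin receptor TrkC and the last gene of the middle segment, was at 3.21, 3.79 and 3.05 CPM in the control libraries and 12.0, 10.3 and 11 CPM in the overexpressing libraries. MRPL46 and MRPS11, both of the mitochondrial ribosome, had ratios of -0.20 and -0.07 with overlapping groups, and AEN, a nuclease linked to apoptosis, fell by 0.28. Without control replicate 3 the ratios were -0.18 for AKAP13, 0.53 for KLHL25, -0.08 for MRPL46 and 0.03 for MRPS11, so the sign of MRPS11 turned. MRPL46 shares exons with another gene on its strand. NTRK3 was itself far above its neighbours, and no other member lies between KLHL25, which ends at 85795030, and MRPL46. As given below, NTRK3 became a member only through its level in the overexpressing libraries. The position of the second step in this stretch was therefore not resolved.

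Medians were also taken in windows of 5 Mb. The windows at 40 to 45 Mb and 60 to 85 Mb are the stretches picked beforehand, so their signs were fixed by that choice. Medians before them were -0.74 at 20 to 25 Mb (4 members) and -0.04 at 25 to 30 Mb (5 members). They were -0.23 at 30 to 35 Mb (28 members, 13 of them above 0) and -0.64 at 35 to 40 Mb (7 members). The 67 members at 40 to 45 Mb had a median of -0.48, with 43 called lower and 1 higher. Medians were 0.36 at 60 to 65 Mb, 0.41 at 65 to 70 Mb, 0.36 at 70 to 75 Mb, 0.43 at 75 to 80 Mb and 0.39 at 80 to 85 Mb, and 0.00 for the 13 members at 85 to 90 Mb. From 50 to 60 Mb the level was lower, with 0.25 and 0.09 in the 2 windows.

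**Figure D2:**
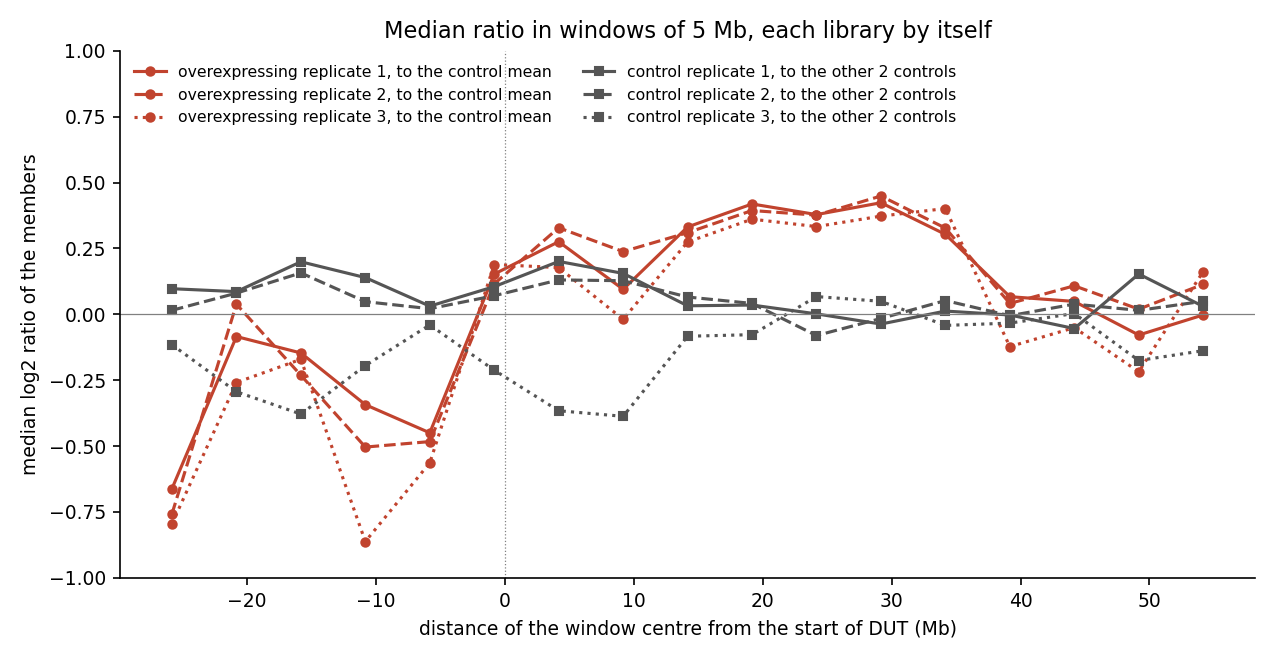
Median log2 ratio of the members in windows of 5 Mb (y axis) against the distance of the window centre from the start of DUT in Mb (x axis), for each overexpressing library against the control mean (red) and each control against the other 2 controls (grey). All 3 red lines cross 0 near the step. They run together between 0.27 and 0.45 in the windows at chromosome positions 60 to 85 Mb. Single red lines also cross 0 elsewhere, with replicate 2 at 0.04 at 25 to 30 Mb and replicate 3 at -0.02 at 55 to 60 Mb. The grey dotted line of control replicate 3 falls to -0.39 at chromosome position 55 to 60 Mb.

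Further steps split the proximal and the middle segment. With 3 steps the first 25 members, up to ARHGAP11A, had a median of 0.02 and the next 90, from AVEN at 33866227, a median of -0.51 (0.704-fold), for 31.8% of the deviation removed. With 4 steps the 46 members from DUT to ICE2 had a median of 0.20 (1.15-fold) and the 141 from VPS13C at 61852389 a median of 0.41 (1.33-fold), for 33.4% removed. Control replicate 3 moved in the same places. Its median against the other controls was -0.32 in the first 25 members and -0.33 in the 46 from DUT to ICE2, where transcripts had a median GC content of 39.8%, against -0.02 in the 141 that followed. Without control replicate 3 the first 25 members had a median of -0.08, the 46 a median of 0.09, and the 141 a median of 0.37, so the sign of the first turned. Within classes of like transcript GC content the 3 medians were 0.03, 0.20 and 0.40. The part of GC content and of this library in these levels was not tested further.

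The first 25 members include duplicated genes. Between 28 and 33 Mb lay 9 GOLGA8 genes, which encode golgin-like proteins, with a median of 0.26 and 8 of 9 above 0. None of these 8 passed the test, and the groups overlapped in 6 of them. The value rests largely on control replicate 3, where GOLGA8O was at 97.3 CPM against 162 and 167 CPM in control replicates 1 and 2, and 192, 185 and 138 CPM in the overexpressing libraries. Without that control the median of the 9 was 0.10. The other 11 members of that stretch had a median of -0.04 (-0.13 without control replicate 3), and the 95 proximal members outside it -0.51. The GOLGA8 genes are near-identical copies whose reads the counting could split or lose, so their single values are uncertain. Before them, NIPA2, a magnesium transporter and the first member, was at 136, 135 and 115 CPM in the control libraries and 88.2, 85.6 and 82.3 CPM in the overexpressing libraries. CYFIP1, part of the WAVE actin regulatory complex, was at 182, 172 and 169 CPM against 101, 91.4 and 89.0 CPM. Both fell, and their groups were well apart, but their exons overlap on opposite strands. HERC2, a ubiquitin ligase, had a ratio of -0.04 with overlapping groups, KLF13, a zinc finger transcription factor, fell by 0.47, and ARHGAP11A, a GTPase-activating protein, had -0.20 (-0.31 without control replicate 3). Of 14 members of the list of imprinted and duplicated genes of this region, 1 rose (APBA2, a synaptic adaptor) and 6 fell, with a median of -0.29.

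Rows that the choice of members did not use had medians in the same order, with wide and overlapping spreads. Coding rows of 1 to 5 CPM had medians of -0.29 in the proximal (22 rows), 0.57 in the middle (34) and 0.42 in the distal segment (13). Noncoding rows of at least 1 CPM had medians of -0.15 (36), 0.41 (38) and -0.06 (14). For noncoding rows with no exon over a member the medians were -0.09 (29), 0.41 (28) and -0.06 (10). The weakly expressed coding rows of the distal segment thus differed from its members, whose median was 0.00. These rows come from the same libraries and are not independent of the members.

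The same single step was sought on all 23 chromosomes with at least 100 coding genes of 5 CPM or more. Chromosome 15 had the largest share of deviation removed, 25.0%, before chromosome 6 with 15.8%, where the median went from 0.21 before PHF3 to -0.37 from it on. Chromosome 20 followed with 7.17%, from 0.64 to 0.30, and chromosome 2 with 5.81%. On the other 19 chromosomes the share was under 5%, down to 0.416%. The X chromosome had 0.788%, with a median of 0.49 over all its genes. This order is a description of these libraries. The stretches of chromosome 15 were picked by these same ratios, so its high place was largely fixed beforehand and nothing is read from it.

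**Figure D3:**
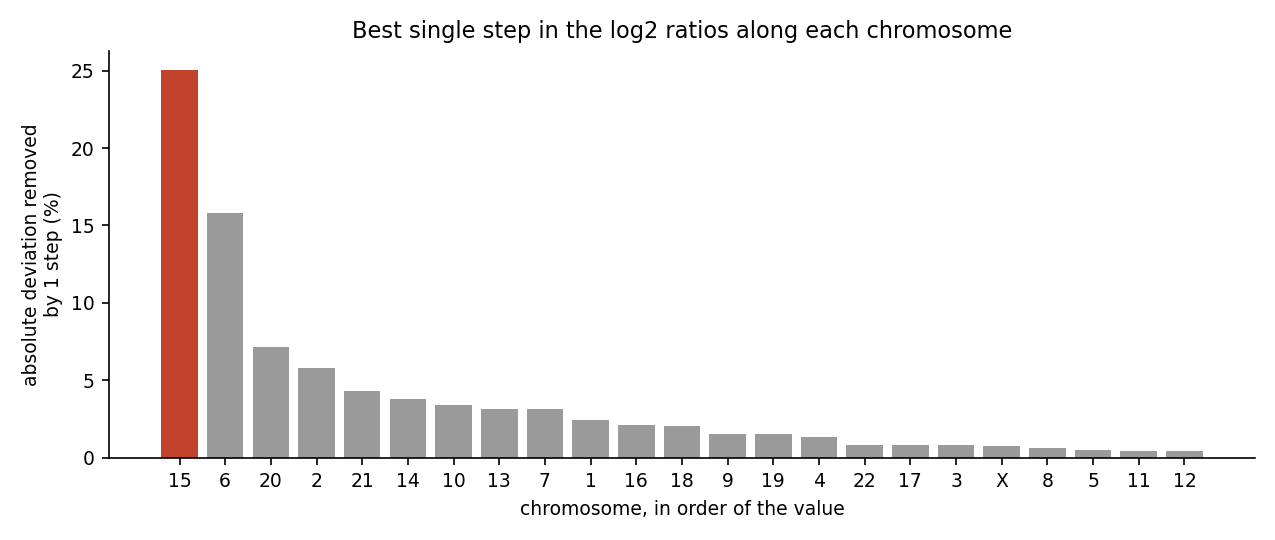
Share of the summed absolute deviation of log2 ratios that the best single step removed (y axis, %) for each of 23 chromosomes (x axis, in order of the value), with chromosome 15 in red. Chromosome 15 stands at 25.0%, chromosome 6 at 15.8%, and 19 chromosomes lie under 5%. The stretches of chromosome 15 were picked by these same ratios.

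The landmark B2M fell. It was at 1474, 1513 and 1554 CPM in the control libraries and 1135, 1125 and 1249 CPM in the overexpressing libraries, so the groups lay apart (1514 ± 40.0 against 1170 ± 68.6 CPM, SD, n = 3). Its ratio of -0.37 was 0.04 above the median of its neighbours. PML, a scaffold of nuclear bodies, was at 45.6, 44.1 and 47.2 CPM against 57.3, 59.4 and 57.6 CPM. It rose by 0.35, and the 20 members before it had a median of 0.32 and the 20 after it 0.30, so no step lay at PML. Counts per gene do not separate the fusion transcript from PML's own.

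Members were also set against their surroundings. Against the median of the 10 members on either side, 289 of 347 (83.3%) departed by less than 0.5 on the log2 scale. No such share is given here for other chromosomes, so nothing particular to chromosome 15 is read from it. A gene was taken as departing when its mean difference was at least 1 and each of the 3 libraries differed by at least 0.5 the same way. This gave 7 genes above and 8 below their neighbours, against 2.41% and 1.54% of the coding genes of at least 5 CPM on chromosomes 1 to 22 and X. Departing genes were thus about as few here as over all chromosomes, and nothing is read from their number. All 15 passed the test against the controls, and in all 15 the groups did not overlap. The same libraries chose these genes by their ratios, so both outcomes were largely fixed beforehand. Of coding genes at the member level, 17.9% were called higher and 15.6% lower. In 27.1% and 24.8% of them all overexpressing libraries lay above or below all controls.

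ADAMTS7, a secreted metalloprotease of the ADAMTS family (78759203 to 78811431, minus strand), departed most. It was at 0.826, 0.996 and 0.801 CPM in the controls (46, 56 and 46 counts) and 24.5, 24.0 and 22 CPM in the overexpressing libraries. The ratio was 4.60 ± 0.08 (SD, n = 3), and 4.15 above its neighbours. With a pseudocount of 1 CPM in place of 0.1 CPM it was 3.71, since the control levels are so low. Its 7 GGGCGG matches stand in the promoter printed above. CD276, the B7-H3 immune checkpoint ligand, was at 3.30, 4.91 and 4.05 CPM against 26.9, 24.3 and 25.2 CPM, a ratio of 2.61 and a departure of 2.22. Both lie in the middle segment and were at low levels in all 3 controls. ADAMTS7, CD276 and NTRK3 were under 5 CPM in every control and became members only through the overexpressing libraries. SPRED1, described below, was under 5 CPM in every overexpressing library and became a member only through the controls. The level thus favours such large ratios.

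ATP8B4, a phospholipid flippase, rose from 88.9, 91.7 and 64.7 CPM to 291, 292 and 247 CPM, a departure of 1.5 a short way past the first step. STARD5, a lipid-binding START domain protein, rose from 7.61, 7.97 and 7.47 CPM to 29.8, 35.0 and 25.0 CPM, though it shares exons with another gene on its strand. BCL2A1, an anti-apoptotic BCL2 relative, rose from 12.3, 14.3 and 14.4 CPM to 37.4, 35.3 and 41.2 CPM. NTRK3, given above, departed by 1.63. CHST14, a sulfotransferase of dermatan sulfate, was the only departing gene to rise in the proximal segment, from 16.8, 17.6 and 16.9 CPM to 24.4, 24.0 and 25.7 CPM, a ratio of 0.53 among neighbours that were lower and a departure of 1.10.

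Of the 8 departing below, 4 lay in the proximal segment. SPINT1, SPRED1 and MGA were lower than neighbours that were themselves lowered. The neighbours of GOLGA8M were not lowered, as its ratio of -1.54 was close to its departure. SPINT1, a Kunitz-type inhibitor of serine proteases, was at 38.7, 40.1 and 48.6 CPM in the control libraries and 12.9, 9.99 and 11.3 CPM in the overexpressing libraries, a ratio of -1.90 and a departure of -1.33. SPRED1, an inhibitor of the Ras-MAP kinase pathway, was at 10.5, 13.4 and 8.04 CPM against 3.13, 3.45 and 2.95 CPM. MGA, a partner of MAX that represses transcription, was at 51, 49.6 and 38.1 CPM against 16.4, 15.1 and 13.3 CPM. The lowest library in each control group was still above every overexpressing library. GOLGA8M, at 59.1, 50.4 and 35.1 CPM against 17.9, 15.2 and 16.4 CPM, departed by -1.59 while the 8 other GOLGA8 genes of its stretch were above 0. Its symbol stands on 2 overlapping annotated genes and its copies are near-identical, so this value is uncertain.

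In the middle segment, DNAJA4, a co-chaperone of HSP70, fell from 18.6, 18.6 and 20.5 CPM to 8.32, 9.82 and 8.92 CPM, a departure of -1.57 among raised neighbours. ANXA2, a calcium-dependent membrane-binding protein, fell from 432, 463 and 489 CPM to 258, 233 and 246 CPM, a departure of -1.17. In the distal segment, SLCO3A1, an organic anion transporter, fell from 98.4, 89.6 and 89.0 CPM to 47.4, 43.9 and 43.0 CPM. NR2F2, the nuclear receptor COUP-TFII, fell from 108, 106 and 88.4 CPM to 40.8, 33.3 and 33.7 CPM, a departure of -1.53. Its exons overlap MIR1469 on the same strand. Exons of SPINT1, MGA, ATP8B4, STARD5, DNAJA4 and SLCO3A1 also lie over a gene on the opposite strand, and whether reads were counted by strand is not given in the sources used here.

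**Figure D4:**
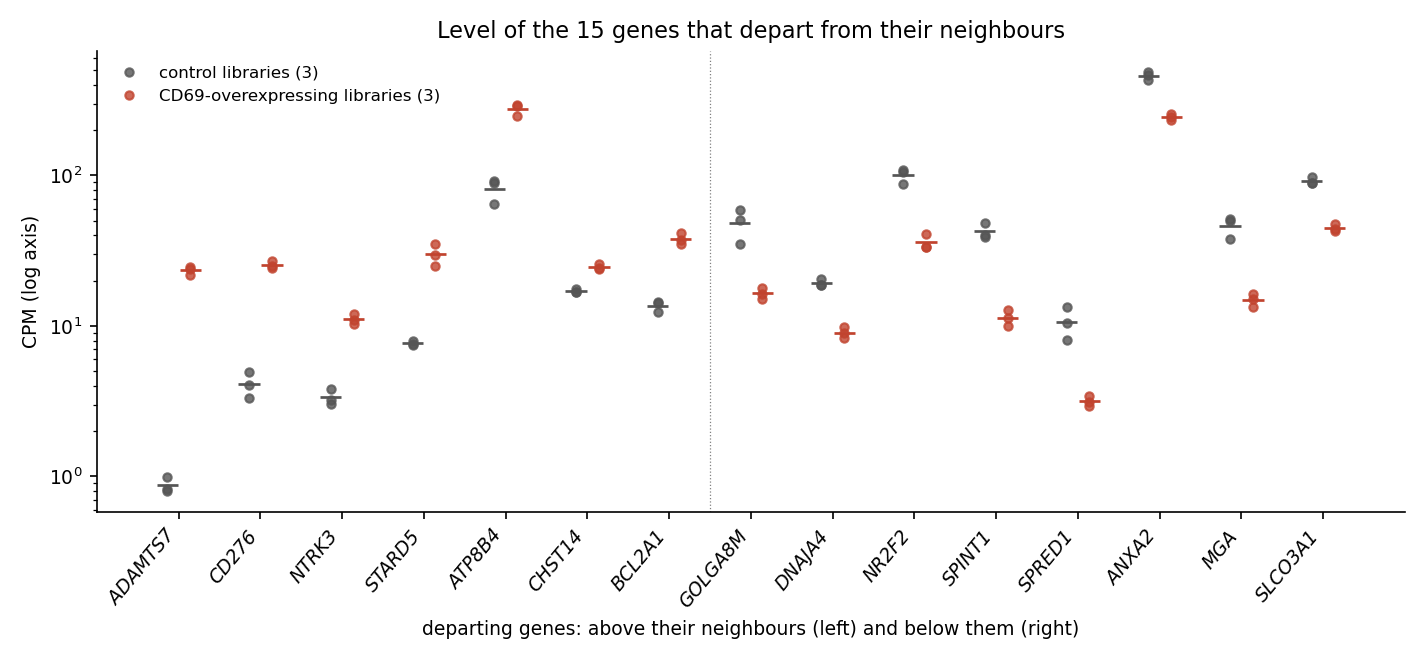
CPM in every library (log y axis) of the 7 genes departing above and the 8 departing below their neighbours (x axis), with controls in grey, CD69-overexpressing libraries in red, and a bar at each group's mean (n = 3). In all 15 genes, which were chosen by their ratios in these libraries, the 2 groups do not overlap. ADAMTS7 is under 1 CPM in every control.

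A few members differed among the overexpressing libraries themselves. SNX22, a sorting nexin, was at 7.77, 2.31 and 2.45 CPM in the control libraries and 2.26, 12.7 and 13.2 CPM in the overexpressing libraries. THBS1, the matrix protein thrombospondin-1, was at 16.0, 22.4 and 19.5 CPM against 19.3, 4.71 and 6.79 CPM. MYO1E, a class I myosin, was at 8.78, 8.41 and 5.74 CPM against 4.70, 9.03 and 9.0 CPM. In each, replicate 1 stood apart from replicates 2 and 3, as it did in the sum of B cell markers, and the part of those cells or transcripts was not tested. These 3 were chosen after their values were seen.

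Lists of genes by role are given by segment. Their members are among those whose ratios set the segments, so the signs by segment are no separate result. The lists can be read beside all coding genes at the level, with a median of -0.01 and 17.9% called higher and 15.6% lower. Of 19 members with roles in cell division, 2 rose and 9 fell, and all 9 that fell were among the 12 of the proximal segment, whose median was -0.56. NUSAP1, a spindle microtubule protein, went from 292, 299 and 252 CPM to 194, 191 and 167 CPM, and BUB1B, a spindle checkpoint kinase, from 208, 201 and 167 CPM to 137, 134 and 128 CPM. Both overlap exons of another gene on the same strand. None of the 5 members in the middle segment passed, CCNB2 (a mitotic cyclin, -0.12) and KIF23 (a kinesin of cytokinesis, 0.23) among them, and the 2 distal members PRC1, which bundles the central spindle, and RCCD1 rose by 0.46 and 0.44.

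For DNA replication and repair, 2 of 15 rose and 4 fell, with a median of 0.02. All 4 proximal members fell, among them TP53BP1, a factor of double-strand break repair, by 0.37. PCLAF, which binds PCNA, rose from 188, 172 and 177 CPM to 214, 212 and 237 CPM in the middle segment and shares exons with another gene on its strand. FANCI, of the Fanconi anaemia pathway, lay in the distal segment at 271, 268 and 248 CPM against 279, 272 and 241 CPM, with overlapping groups. Of 17 members of the list for translation and the ribosome 3 rose and 4 fell, with a median of -0.07, and all 4 that fell were proximal. These were EIF3J, a subunit of a translation initiation factor, SRP14, of the signal recognition particle, and 2 genes with other known roles, CHAC1 (glutathione breakdown) and RPAP1 (assembly of RNA polymerase II). The list also held DENND4A and SNAPC5, which have other roles, and did not hold TARS3. The ribosomal protein genes RPL4 and RPLP1 had ratios of 0.10 and 0.04 with overlapping groups, below the middle segment's median. Their departures from their neighbours were -0.31 and -0.33. RPL4 hosts small nucleolar RNAs in the annotation.

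Of 20 members of the ubiquitin and proteasome list 8 rose and 2 fell, with a median of 0.23, the 8 all in the middle segment and the 2 in the proximal. BTBD1, an adaptor of a ubiquitin ligase, went from 130, 128 and 100.4 CPM to 169, 172 and 160 CPM, while PSMA4, a proteasome subunit, had a ratio of 0.14 with overlapping groups. UBE3A, the ligase of Angelman syndrome, fell by 0.47 in the proximal segment. Of 29 chromatin and transcription factor genes 6 rose and 8 fell, with a median of 0.03. In the middle segment TLE3, a Groucho-type corepressor, fell by 0.24 among raised neighbours, and SIN3A, a scaffold of histone deacetylase complexes, had 0.15 with overlapping groups.

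Of 27 members of the metabolism list 8 rose and 5 fell, with a median of 0.23, and the 14 in the middle segment were all above 0. PKM, pyruvate kinase, was at 2287, 2302 and 2621 CPM against 2872, 2824 and 2961 CPM, apart in all libraries but not called. PDIA3, a disulfide isomerase of the endoplasmic reticulum, fell from 1037, 1029 and 1061 CPM to 688, 666 and 721 CPM in the proximal segment. IDH2, the mitochondrial isocitrate dehydrogenase, had 0.09 in the distal segment with overlapping groups. The list also held genes with other known roles, among them NTRK3, a receptor kinase and 1 of the 8 that rose, and FAM98B (of a tRNA ligase complex) and MFAP1 (a splicing factor), 2 of the 5 that fell. Of 29 immune and myeloid genes 10 rose and 6 fell, with a median of 0.09. Beside CD276, BCL2A1 and PML, the kinases CSK and MAP2K1 rose by 0.48 and 0.35. ANPEP, the myeloid surface peptidase CD13, was at 453, 448 and 483 CPM against 417, 408 and 375 CPM, apart but not called, and IQGAP1, a scaffold of the cytoskeleton, had -0.08.

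Of 32 members with roles in the lysosome, Golgi and vesicle traffic 11 rose and 6 fell, with a median of 0.24. All 11 were in the middle segment and all 6 in the proximal. HEXA, the alpha subunit of lysosomal hexosaminidase, went from 207, 204 and 234 CPM to 297, 284 and 312 CPM and shares exons with another gene on its strand. TMED3, a cargo receptor of the early secretory pathway, went from 173, 166 and 195 CPM to 239, 229 and 257 CPM, and SNX1, of the retromer pathway, from 167, 174 and 164 CPM to 230, 240 and 219 CPM. Within single lists, members of the proximal segment mostly had the sign of that segment and members of the middle segment the other. The ratios of these same members set the segments, so nothing further is read from this.

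**Figure D5:**
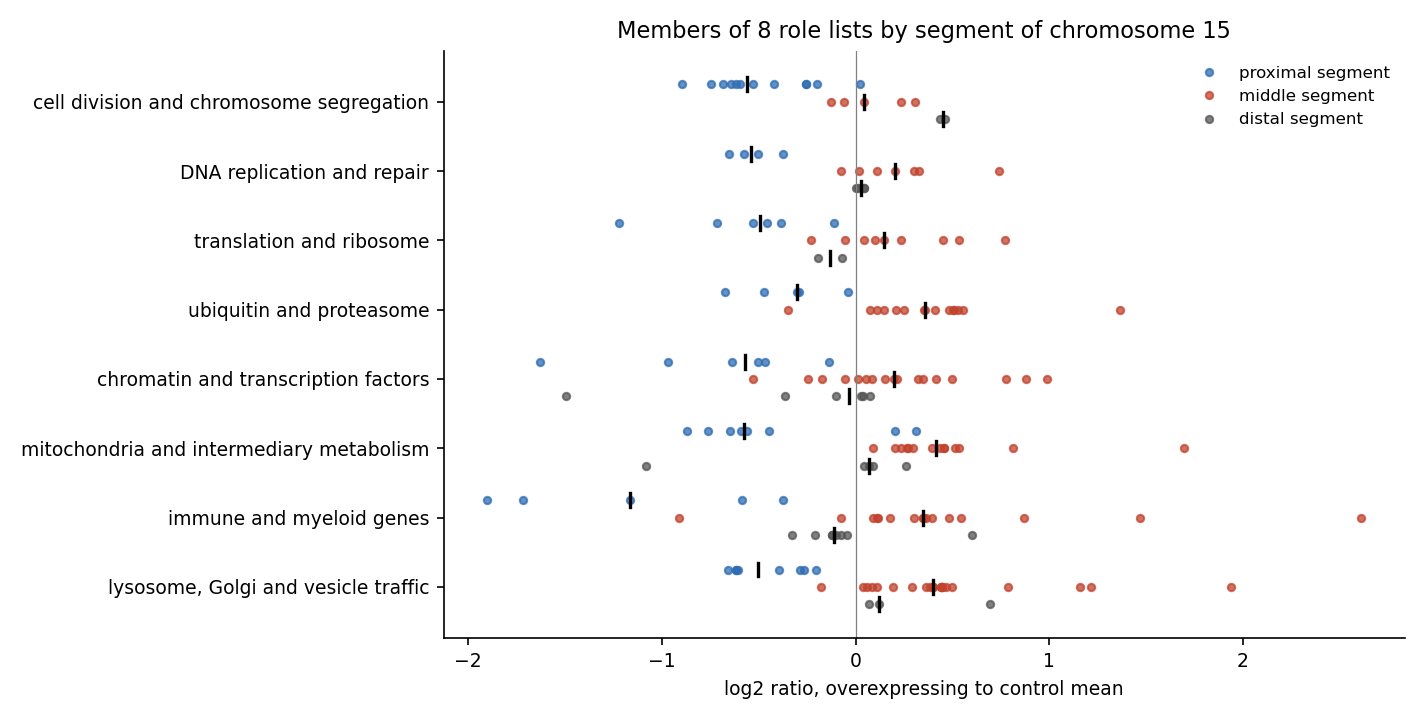
Mean log2 ratio (x axis) of the members of 8 role lists (y axis), with a dot for each gene, coloured by segment, and a black bar at each median. In all 8 lists the proximal median lies below 0 and the middle median above it. The segments were cut on the ratios of these same members.

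The last member, TARS3, a threonyl-tRNA synthetase, rose from 16.5, 15.0 and 17.6 CPM to 22.2, 23.1 and 23.1 CPM, a ratio of 0.47 in a segment whose median was 0.00.

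Promoter content was compared between segments for the 310 members with a RefSeq window of 250 bases before to 50 after the start, as a description. Median GC content was 61.7% for 97 proximal, 67.0% for 173 middle and 67.2% for 40 distal promoters, against 58.7% over the 35116 promoters of the table. GGGCGG was found in 61.9%, 73.4% and 75.0%, against 45% of all. CCAAT was found in 46.4%, 31.2% and 47.5%, against 34.6% of all. The E-box CACGTG was in 3.09%, 8.67% and 12.5% (7.26% of all), CCGGAAG in 19.6%, 22.5% and 25.0% (10.3%), TATAAA in 4.12%, 4.05% and 5.00% (11.5%), and AGGTCA in 8.25%, 6.36% and 5.00% (13.8%). Median CpG counts were 24, 29 and 30.5, against 14. Members of all 3 segments had a higher median GC content than the table as a whole. The promoters of the table were not limited to coding genes at the member level. No value for such genes on other chromosomes is given, so nothing particular to chromosome 15 is read from this.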

How the data were processed

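Poly(A) RNA of 6 NB4 libraries, 3 per group, was sequenced in pairs from strand-specific libraries, per the labels' protocols. The authors deposited 1 table of estimated counts per gene (61806 rows, whole numbers). FastQC, fastp, STAR and featureCounts of Subread with GRCh38 (hg38) stand in the submitters' processing notes. Tool versions, the gene annotation, any strand setting and what 1 count stands for are not given in the sources used here. An excess of genes at multiples of 4 counts leaves the true depth uncertain, so counts divided by 4 were an alternative. Positions came from GENCODE release 29 by Ensembl identifier (58254 rows). No DNA data were used here.

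CPM used column totals. Calls came from edgeR 4.0.16 (R 4.3.3; filterByExpr, TMM factors, quasi-likelihood test, two-sided, Benjamini-Hochberg over 19485 genes, threshold 0.05). Segments held at least 10 members. Named genes were the 3 members beside each step, departing genes, the 3 most abundant of each list, B2M, PML and the first and last member. Some values are not reported here. Further genes were picked as list examples after their values were seen. Members and lists were chosen with earlier results of these data known. Same-numbered libraries deviated together from their group means (correlations 0.109, 0.181 and 0.418), and by that criterion the number was taken as a pairing. Numbers 1 and 2 were not told apart (0.164 and 0.174 between unlike numbers 1 and 2). The main test and ratios left the pairing out, and it entered only as the replicate block. Chi-square per degree of freedom, on counts divided by 4, was 2.54 to 21.0 within groups, above the 1 of sampling noise. The test was checked on simulated counts. Alternatives were DESeq2 1.42.0, limma-voom (limma 3.58.1), other scaling, filters, levels, pseudocounts and neighbours, a replicate block, and each library left out. Figures were drawn with matplotlib 3.10.9.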

Additional observations from a re-analysis of the deposited data

How the results depend on the processing

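Under every alternative run for it the first step stayed between SQOR and DUT. These were squared deviations, TMM factors, levels of 1 and 20 CPM, a pseudocount of 1 CPM, the replicate block, each library left out and each overexpressing library alone. The second step was sought again only in each overexpressing library alone, where it stayed between NTRK3 and MRPL46. Classes of transcript GC content and the members without GOLGA8 genes or without genes sharing exons were chosen after seeing the data, as were the alternatives for the first 25 members, the GOLGA8 genes and the parts of the middle segment. The median before the first step was -0.39 with overexpressing replicate 1 alone. The median after it was 0.289 with TMM factors, 0.307 at 1 CPM, 0.261 at 20 CPM, 0.281 and 0.283 with overexpressing replicates 2 and 3 alone, and 0.327 without genes sharing exons. It ran from 0.272 to 0.315 when 1 library was left out. TMM factors moved the median of all coding genes by -0.008. Members called ran from 74 to 126 higher and 63 to 92 lower. The replicate block called 126 higher and 92 lower, and changed no count by more than 1.5 times and no step. At 1 CPM, 21 genes departed above and 16 below, among them all 15 of the main level. At 20 CPM, 5 and 6 did: ADAMTS7, CD276, DNAJA4, NTRK3, SPRED1 and STARD5 were no longer among them, and APBA2 and SEC11A were added above. SPRED1 did not depart with a pseudocount of 1 CPM, SLCO3A1 did not with overexpressing replicate 1 alone, and BCL2A1 did not with replicate 2 alone. Of 689 alternative values of the 53 named genes, 604 moved by less than the spread between replicates, 85 by more, and 0 changed sign when called. The spread was the SD of a gene's ratio over the 3 overexpressing libraries. Leaving out 1 of these libraries cannot move the mean ratio by more than that SD. Part of the 604 was thus fixed beforehand, and nothing is read from that number. Low depth limits genes such as ADAMTS7 in the controls, where 46 to 56 counts may stand for fewer fragments.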
